A study of Mus musculus with 60 samples.

Results

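The distal pieces of both jaws were compared: distal mandible (lower jaw) against distal maxilla (upper jaw) at embryonic day E11.5, with 3 arrays of each, 6 of the 60 arrays in the series. All 18193 genes with a probe set of their own symbol were compared, each through the probe set with the highest mean signal over all arrays. The embryos were of the C57Bl/6 strain, with no mutation or treatment named, and the other groups used were proximal mandible and proximal maxilla at E11.5 and distal mandible and distal maxilla at E12.5, with 3 arrays each. The series follows both jaws from E10.5 to E14.5 within the FaceBase consortium, to profile expression while the mandible and maxilla form. The labels do not say how many embryos went into an array, where a piece was cut or whether arrays came from separate litters. The p-values therefore measure only the spread between arrays of a group. That spread was estimated for each gene over all 60 arrays, not from the 6 compared.

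Both jaws grow out of the first pharyngeal arch, whose mesenchyme is mostly neural crest beneath a sheet of epithelium. Endothelin signalling in the lower part of the arch turns on Dlx5 and Dlx6 and, through them, Hand2, and this cascade gives the mandible its identity, while the upper part, with Dlx1 and Dlx2 but little Dlx5 and Dlx6, becomes the maxilla. The head muscles that move the jaws do not come from neural crest: their precursors leave the cranial mesoderm, fill the core of the mandibular arch and switch on Myf5, Myod1 and Myog as they differentiate. Sensory nerves reach both jaws from the trigeminal ganglion.

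The tissue label of all 6 arrays reads distal bone, and the markers were set beside it. Mesenchyme markers were high in both jaws, with Prrx1 at log2 12.86, 12.92 and 12.84 in distal mandible, against 12.84, 12.85 and 12.79 in distal maxilla. Values are log2 signals, so that 1 unit is a 2-fold difference, and a group mean no higher than 4.78 is not taken to show that a gene is present. That floor is the largest lower quartile found on an array. Of the 6 bone markers measured, Ibsp, Phex and Dmp1, which mark mineralizing bone, were at or under that floor in both jaws, and Sp7, Alpl and Col1a1 were above it. Neither group is therefore described here as bone. Where a group lies at or under the floor, a fold is given as a lower bound counted from the floor.

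The distal mandible arrays differed more among themselves than the distal maxilla arrays. Pairs of mandible arrays differed by a root mean square of 0.24, 0.28 and 0.33 log2 units over all probe sets, against 0.17, 0.17 and 0.16 for the maxilla pairs. Mandible replicate 3 had a raised distribution, with a median of 6.31, against 6.15 and 6.13 in the other mandible arrays and 6.13 to 6.14 in the maxilla. Mandible replicate 2 was the array highest in muscle genes, as described below. Of Xist and the 3 Y-linked genes measured 0 were called between the jaws by limma and 0 had an unadjusted p under 0.05, although 1 of the 4 was called higher in mandible with only the 6 arrays in the fit, and both kinds were present in both groups.

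Of the 18193 genes, 4681 (25.7%) differed between distal mandible and distal maxilla at an adjusted p under 0.05 (limma, Benjamini-Hochberg), and these are the genes called below. Higher signals in mandible were called for 2631 genes (14.46%) and lower ones for 2050 (11.3%). Counts of called list members in this comparison are to be read against these shares, also where they are not repeated. Most differences were small: the median size among called genes was 0.32 log2 units, and 296 genes (1.63%) were called and at least 2-fold apart, 181 higher in mandible (0.995%) and 115 lower (0.632%). All 3 mandible arrays lay above or below all 3 maxilla arrays for 5722 genes (31.5%), above for 3485 (19.2%) and below for 2237 (12.3%), and 4000 of the called genes were among them. The balance of directions rested on scaling and on mandible replicate 3. With every array centred on its own median 2080 genes were higher and 2795 lower, after a further quantile normalization 2187 and 2872, and without mandible replicate 3 the counts were 1949 and 2790. With only the 6 arrays in the fit, 2445 genes were called, 1444 higher and 1001 lower.

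**Figure D1:**
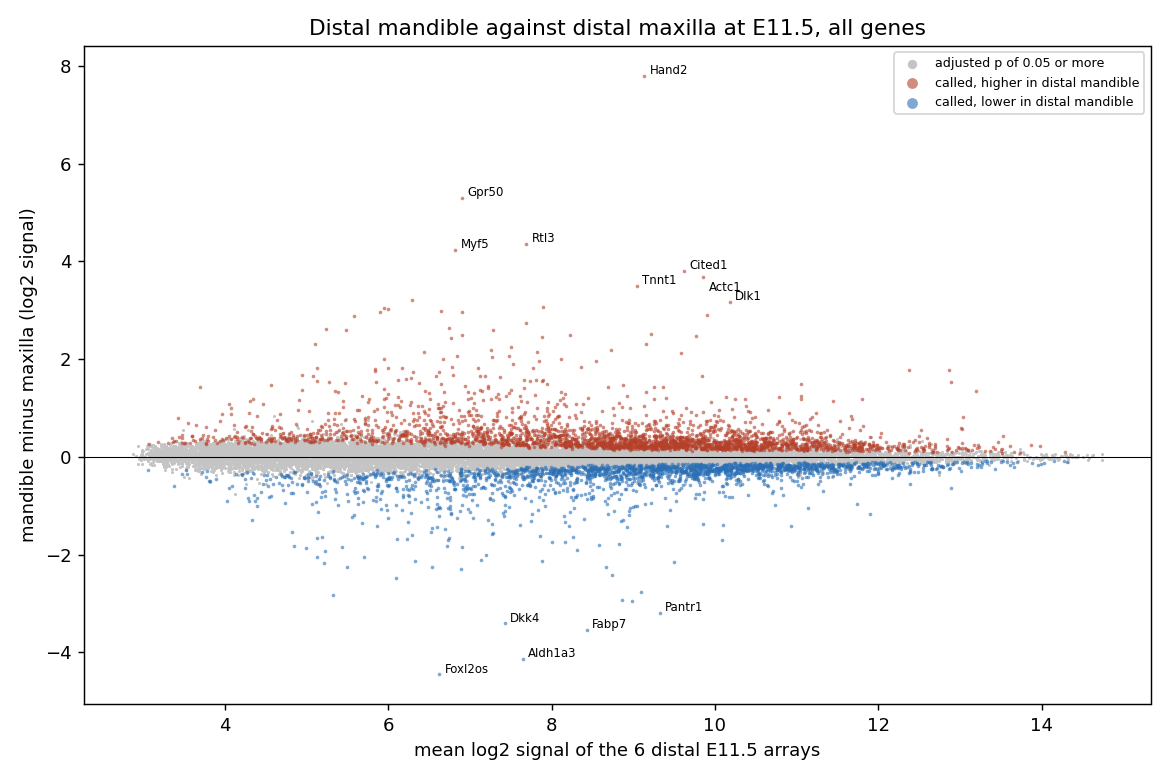
Difference between distal mandible and distal maxilla at E11.5 (vertical axis, mandible minus maxilla in log2 signal, 3 arrays each) against the mean log2 signal of the 6 arrays (horizontal axis), 1 point per gene for 18193 genes. Red points are called higher and blue points lower in mandible at an adjusted p under 0.05; Hand2 stands highest at 7.79 and Foxl2os lowest at -4.45.

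The genes of lower-jaw identity were mostly higher in distal mandible. Of 21 measured members, 12 were called higher, against 14.46% of all genes, 2 lower and 7 were not called, with a median difference of 0.44, against 0.029 over all genes. Hand2, the transcription factor that defines the distal mandible in the endothelin cascade, had log2 signals of 13.05, 13.16 and 12.89 in distal mandible, against 5.21, 5.12 and 5.38 in distal maxilla. The groups were far apart, by 7.79 log2 units (SE 0.12, adjusted p = 1.01e-44), the largest difference of any gene. Its promoter in the RefSeq table of GRCm38.p6 (chr8:57320733-57321032, plus strand) is shown because Hand2 leads the comparison, with the homeodomain core TAATTA, a sequence bound by Dlx and Msx factors among others, in capitals.
Hand2: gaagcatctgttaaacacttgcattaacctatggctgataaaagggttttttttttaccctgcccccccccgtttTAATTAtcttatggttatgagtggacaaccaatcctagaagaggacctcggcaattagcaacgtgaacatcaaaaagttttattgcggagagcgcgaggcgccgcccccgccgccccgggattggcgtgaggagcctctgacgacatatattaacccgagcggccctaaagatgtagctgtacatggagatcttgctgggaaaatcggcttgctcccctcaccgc
That core, read on both strands and overlapping no other motif searched, occurs once here and in 5.29% of the 32851 mouse promoters of the same length. Of the 15 genes named as highest in mandible, 14 had 17 promoters in the table, of which 2 held it (11.8%). A match of letters is a description and not a binding site.

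Among the distal-less genes of the lower jaw, Dlx6 gave 9.44, 9.28 and 9.70 in mandible, against 6.94, 7.07 and 6.95 in maxilla, a difference of 2.49 (adjusted p = 1.28e-14). Dlx5, its partner in the same cluster, was at 10.02, 10.08 and 10.16 in mandible, against 8.64, 8.66 and 8.66 in maxilla, a difference of 1.43 (adjusted p = 2.92e-09). Both genes were thus lower in maxilla but well above the floor there. Dlx3 differed by 0.12 (adjusted p = 0.53) and Dlx4 was lower in mandible by 0.45, a call lost without replicate 3 of either jaw or with only the 6 arrays.

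Other factors of the mandible followed with differences of more than 1 log2 unit. Cited1, a transcriptional co-activator, had 11.59, 11.18 and 11.79 in mandible, against 7.75, 7.68 and 7.73 in maxilla, a difference of 3.80. Pitx1, a homeobox gene of the mandible and hindlimb, had 9.67, 9.57 and 10.23 in mandible, against 7.61, 7.65 and 7.64 in maxilla, a difference of 2.19. Tbx4, known with Pitx1 from the hindlimb, was higher by 2.18, Rgs5, a regulator of G-protein signalling, by 1.57 and Gsc, a homeobox gene of the mandible, by 1.18. The groups did not overlap for any of these 5 genes. RNA of the endothelin pathway genes listed differed by less than 1 log2 unit. Of 5 ligand, receptor and processing genes measured, 1 was called higher, 1 lower and 3 were not called. The ligand Edn1 was at 6.63 ± 0.08 in mandible and 6.70 ± 0.02 in maxilla (SD, n = 3 each, limma adjusted p = 0.69). The processing enzyme Ece1 was higher by 0.18, and the G proteins Gna11 and Gnaq by 0.46 and 0.53. The receptor Ednrb was lower in mandible by 0.77. The call of Gnaq was lost without mandible replicate 2 or maxilla replicate 1, and that of Ece1 without replicate 2 or 3 of either jaw or with only the 6 arrays.

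Genes of upper-jaw identity were mostly lower in distal mandible: 11 of 15 measured members, against 11.3% of all genes, 9 of them at least 2-fold, with 3 higher and a median difference of -1.18. Foxl2, a forkhead factor, had 7.34, 7.51 and 7.33 in mandible, against 10.35, 10.31 and 10.35 in maxilla, a difference of -2.94 (SE 0.09, adjusted p = 6.98e-30). Its antisense neighbour Foxl2os was at or under the floor in all 3 mandible arrays, with 4.42, 4.20 and 4.58, against 8.86, 8.78 and 8.91 in maxilla. That is at least 16.8-fold lower in mandible, and whether the probes separate the transcripts of this pair was not tested. The Iroquois genes Irx3 and Irx5, patterning factors of the arch mesenchyme, were lower by 1.18 and 1.39. Pou3f3, a POU factor that marks the upper arch, had 9.04, 9.88 and 8.79 in mandible, against 10.93, 10.98 and 10.91 in maxilla, a difference of -1.71. Shox2 was lower by 2.15 and Barx1 by 1.37, both homeobox genes of jaw mesenchyme, and Dlx1 was lower by 1.43. Dlx2 was lower by 0.40 on average, a call lost without mandible replicate 1 or 2 or maxilla replicate 1 or 3. The exceptions were Tshz2, higher by 1.55, and Tshz1, higher by 0.89, zinc-finger genes, and the orphan receptor gene Nr2f2, higher by 0.35 and not called with only the 6 arrays or without mandible replicate 1 or 3 or maxilla replicate 2.

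**Figure D2:**
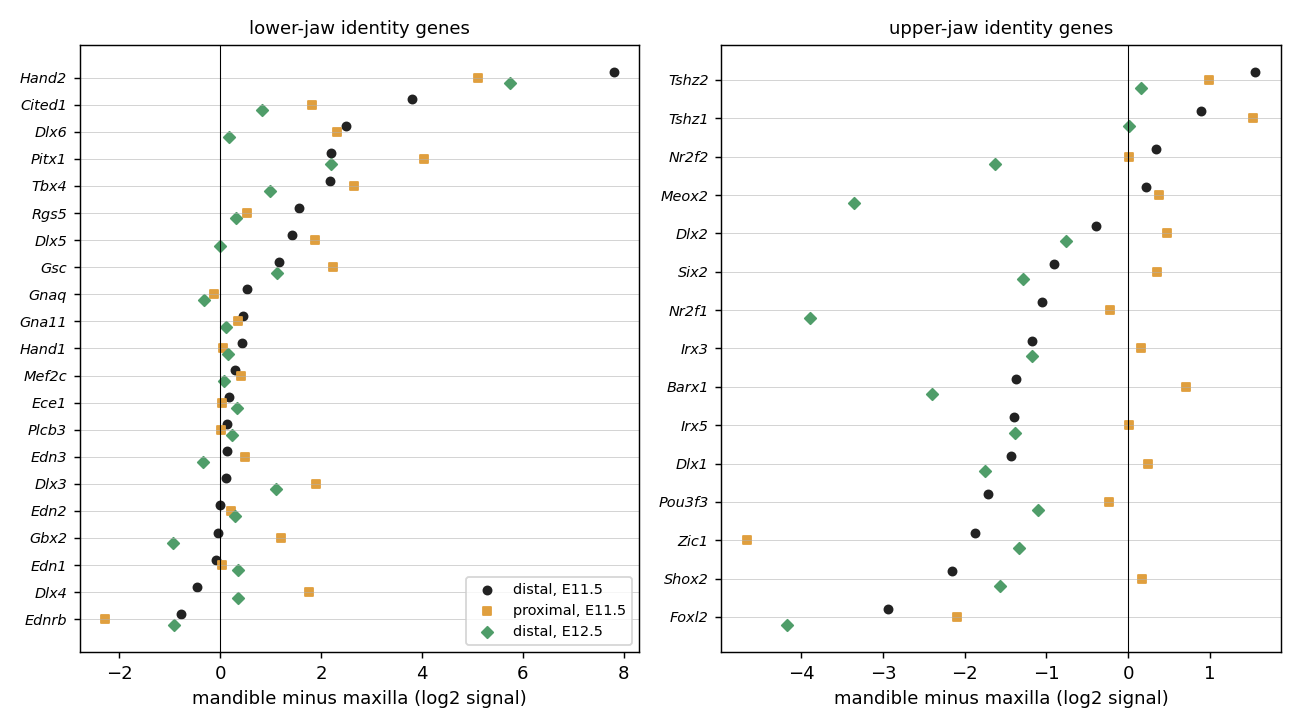
Jaw difference (mandible minus maxilla, log2 signal) of the 21 lower-jaw and 15 upper-jaw identity genes, in distal pieces at E11.5 (black circles), proximal pieces at E11.5 (orange squares) and distal pieces at E12.5 (green diamonds), each from 3 arrays a group. Hand2 is the highest in all 3 comparisons, whereas Irx3, Irx5 and Shox2 lie below 0 in both distal comparisons and at 0.16, 0.02 and 0.17 in the proximal one.

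Of the 30 lists, skeletal muscle had the most genes at least 2-fold apart. Of 20 measured, 18 were called higher in distal mandible, 14 of them at least 2-fold, 1 was lower and 1 was not called, with a median difference of 2.68. Myf5, the earliest of the muscle-determining factors, had 8.74, 8.58 and 9.49 in mandible, against 5.005, 4.52 and 4.58 in maxilla, where its mean was under the floor. The fold was at least 17.8 (adjusted p = 2.43e-17). Myod1, which commits cells to muscle, was at 7.78, 8.06 and 8.36 in mandible, against 5.46, 5.62 and 5.19 in maxilla. Myog, which drives differentiation, was at 9.21, 9.82 and 9.26 in mandible, against 6.39, 6.38 and 6.32 in maxilla, a difference of 3.07 (SE 0.16, adjusted p = 6.06e-21). The precursor factors Tcf21 and Msc were higher as well, Tcf21 by at least 6.04-fold and Msc by 2.04 log2 units. Pax7, a marker of muscle progenitors that neural crest also expresses, went the other way, with 5.66, 6.54 and 6.37 in mandible, against 7.32, 7.23 and 7.54 in maxilla. Fewer muscle cells and less muscle RNA per cell cannot be told apart in bulk tissue, here or for any cell type below.

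Several contractile genes were highest in mandible replicate 2. Actc1, the actin of embryonic striated muscle, had 11.34, 12.42 and 11.33 in mandible, against 8.15, 7.94 and 7.97 in maxilla, a difference of 3.68 (adjusted p = 2.40e-17). Myh3, the embryonic myosin heavy chain, had 7.06, 9.38 and 7.22 in mandible, against 4.58, 4.74 and 4.73 in maxilla. Myl4, an embryonic myosin light chain, had 6.61, 9.25 and 6.64 in mandible, against 4.51, 4.36 and 4.58 in maxilla. In all 3 genes mandible replicate 2 was highest by about 1 unit or more, yet the lowest mandible array stayed above every maxilla array. Without that replicate the differences of the means were 3.32 for Actc1, 2.46 for Myh3 and 2.14 for Myl4, against 3.02 for Myl4 with it. Of the 20 genes 17 were still called higher. The maxilla means of Myh3 and Myl4 were under the floor, so their differences are not exact. Counted from the floor, with all arrays, they were at least 3.11 for Myh3 and 2.72 for Myl4. The mean of the 20 genes was 7.53, 8.54 and 7.74 in mandible arrays, against 5.73, 5.74 and 5.72 in maxilla arrays. Tnnt1, a slow troponin, had 10.60, 10.91 and 10.88 in mandible, against 7.55, 7.18 and 7.16 in maxilla, and Mymx, a peptide that fuses myoblasts, was higher by at least 6.49-fold. Synpo2l, a protein of the contractile apparatus, was higher by 2.97. Markers of heart muscle did not move with these genes as a list: of 10 measured 3 were called higher, Tbx1 by 1.40, Nkx2-5 by 0.71 and Myh6, which was under the floor in both jaws. Tbx1 is also needed for the muscles of the pharyngeal arches.

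The promoter of Actc1 (RefSeq, GRCm38.p6, chr2:114052826-114053125, minus strand) is shown as that of a contractile gene among the 30 named, with a CArG box, the sequence bound by serum response factor, in capitals.
Actc1: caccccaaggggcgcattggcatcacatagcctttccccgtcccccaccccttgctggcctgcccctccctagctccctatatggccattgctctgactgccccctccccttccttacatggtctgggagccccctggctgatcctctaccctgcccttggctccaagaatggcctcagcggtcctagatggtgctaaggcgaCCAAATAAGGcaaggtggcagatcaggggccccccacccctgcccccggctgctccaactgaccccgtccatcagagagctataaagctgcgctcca
CArG boxes occur in 1.63% of all promoters of this length. Of the 18 muscle genes called higher, 14 had 15 promoters in the table, of which 1 (6.67%) held a CArG box. The E-box CAGCTG, a form bound by Myod1 and Myog, read on both strands, was in 5 of the 15 (33.3%), against 16.3% of all promoters. These shares describe few promoters and were not tested.

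**Figure D3:**
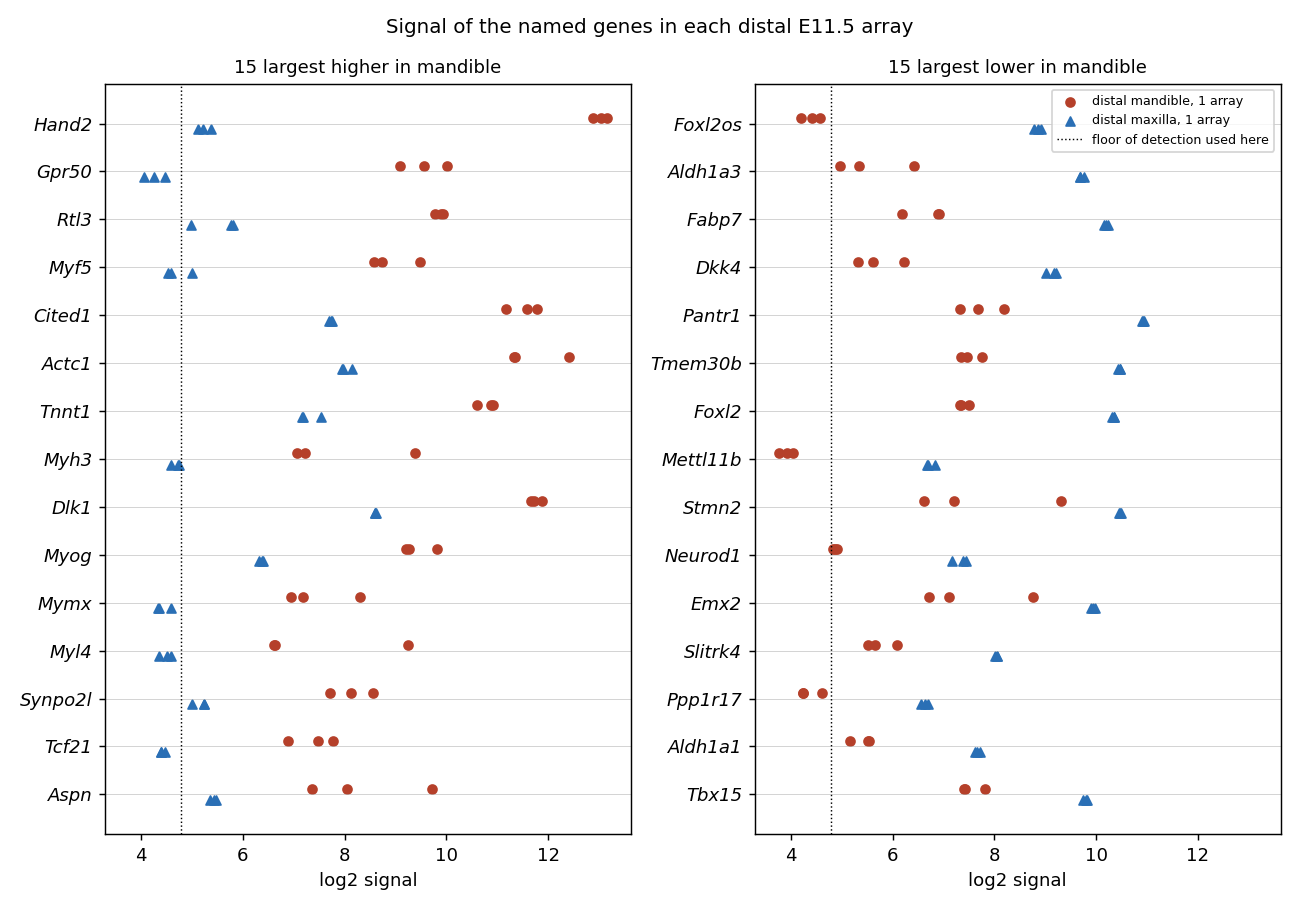
Log2 signal (horizontal axis) of the 15 named genes higher and the 15 lower in mandible, 1 point per array, red circles for 3 distal mandible arrays and blue triangles for 3 distal maxilla arrays at E11.5. The dotted line is the floor of 4.78; mandible arrays spread most for Myl4, Myh3, Stmn2 and Aspn, and the groups do not overlap, which the choice of genes required.

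Nerve and glial genes were lower in distal mandible. Of 16 neuron markers 11 were called lower and the other 5 were not called, with a median difference of -1.06, and 5 of 6 glial markers (Schwann cells and crest-derived glia) were lower, with a median of -0.92. Nefm, a neurofilament of axons, had 8.02, 7.40 and 8.38 in mandible, against 9.74, 9.74 and 9.71 in maxilla (adjusted p = 1.79e-07). Stmn2, a growth-cone protein, had 7.20, 9.32 and 6.62 in mandible, against 10.47, 10.45 and 10.49 in maxilla. Its difference of -2.76 was -3.56 without mandible replicate 2. Neurod1, a factor of young sensory neurons, was at 4.86, 4.83 and 4.91 in mandible, close to the floor, against 7.38, 7.18 and 7.45 in maxilla. Pou4f1, which defines sensory ganglion neurons, was under the floor in mandible and at 5.76 in maxilla. Fabp7, a fatty-acid binding protein of early glia, had 6.19, 6.89 and 6.91 in mandible, against 10.24, 10.21 and 10.15 in maxilla, a difference of -3.54 (adjusted p = 4.79e-15). Among the other glial genes Cdh19 was at least 2.98-fold lower, and Foxd3 and Sox10 were lower by 1.15 and 0.70. Neither Prph nor Neurog1 was called, and for both another probe set was called with the opposite sign.

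Of 8 forebrain markers 5 were called lower and 0 higher, whereas of 8 olfactory and nasal markers 4 were lower and 2 higher in distal mandible. Emx2, a factor of the forebrain that facial tissue also expresses, had 6.72, 8.77 and 7.11 in mandible, against 9.99, 9.95 and 9.90 in maxilla, a difference of -2.41, and of -3.03 without mandible replicate 2. Lhx2 and Sp8 were under the floor in mandible and at 6.19 and 6.30 in maxilla. Ebf2 went the other way, with 9.11, 8.81 and 9.38 in mandible, against 6.83, 6.56 and 6.57 in maxilla. Of 13 frontonasal and midface genes 4 were lower, Pax7, Tfap2a, Tfap2b and Pax3, and Msx2, a homeobox target of BMP signalling, was higher by 0.75. The call of Pax3 was lost without mandible replicate 1 or 3 or maxilla replicate 1 or 2. Tfap2a, needed to shape both jaws, had 8.96, 9.19 and 9.31 in mandible, against 9.90, 9.85 and 9.92 in maxilla. Alx1, a midface homeobox gene, was at 11.63 ± 0.34 in mandible and 11.54 ± 0.03 in maxilla (SD, n = 3 each), which did not pass the test. Of 11 eye and lens markers Six3 and Cryab were called lower and of 5 pituitary markers Cga was, against 11.3% of all genes, a call that for Cryab was lost without mandible replicate 3 or with only the 6 arrays.

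**Figure D4:**
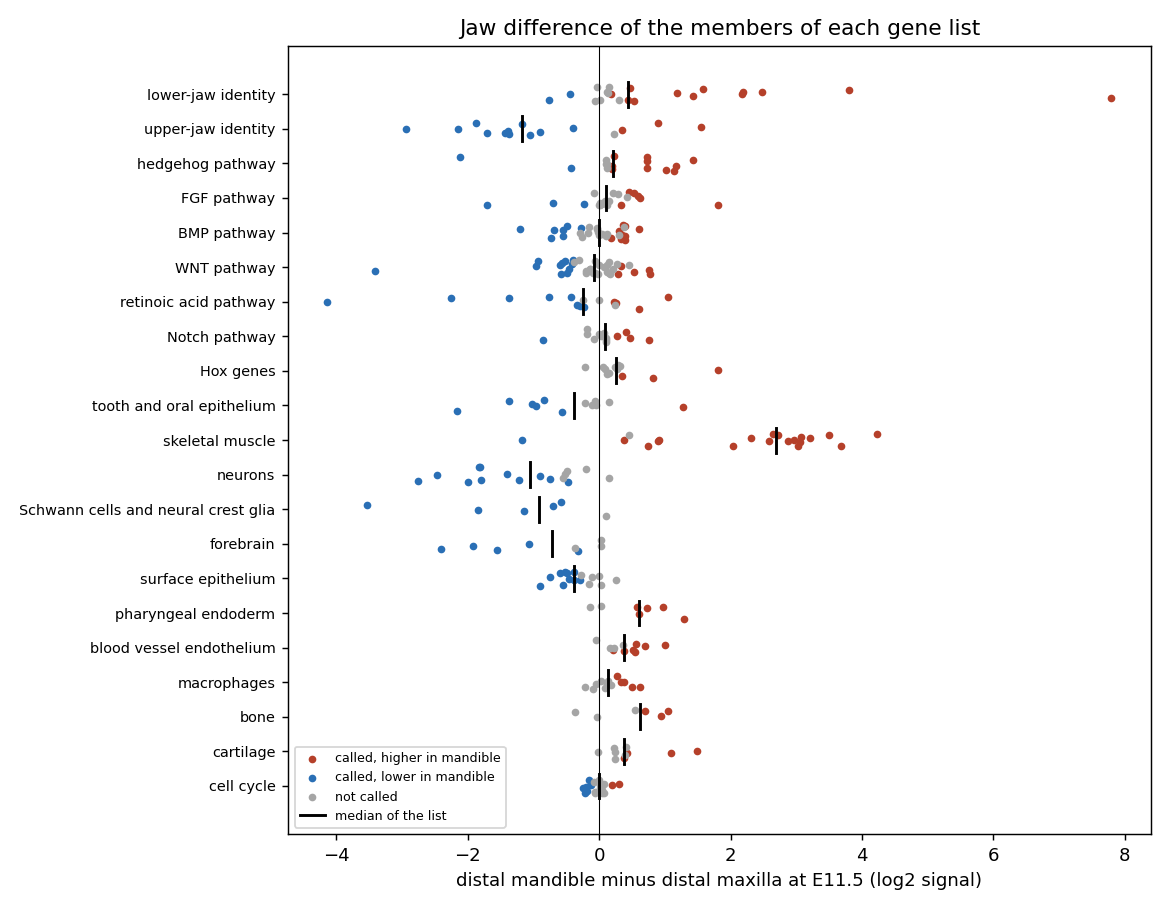
Distal mandible minus distal maxilla at E11.5 (log2 signal) for the members of 21 gene lists, 1 point per gene, with the median of each list as a black bar. Red points were called higher and blue points lower in mandible, and grey points were not called; muscle genes lie farthest right, with a median of 2.68, and neuron genes farthest left, with a median of -1.06, after upper-jaw identity at -1.18.

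Epithelial genes were lower in mandible by small amounts. Of 16 surface epithelium markers 10 were called lower and 6 were not called, with a median difference of -0.38. Epcam, a surface protein of all simple epithelia, had 10.15, 10.43 and 10.40 in mandible, against 11.10, 11.06 and 11.05 in maxilla. Claudin 6, a tight junction protein (Cldn6), was lower by 0.90 and Cldn4 by 0.56, while the basal keratins Krt5 and Krt14 differed by -0.11 and 0.00 and did not pass. Markers of pharyngeal endoderm, which lines the inside of the arch, were higher for 5 of 7, with a median of 0.61. Foxa1, a pioneer factor of endoderm, had 7.46, 6.05 and 7.95 in mandible, against 5.98, 5.90 and 5.68 in maxilla, so that mandible replicate 2 lay beside the maxilla arrays. Nkx2-3 was higher by 0.72, Sox17 by 0.57 and Hhex by 0.61. The call for Foxa2, higher by 0.97, was lost without mandible replicate 3. Of 12 mesenchymal and epithelial genes of the tooth field 6 were lower, with Lhx6 lower by 1.03, Lhx8 by 0.56 and Tfap2b by 0.96 on the mesenchymal side and Sox2 by 0.85 in the epithelium. Irx1 was the only higher one, at 8.25, 8.50 and 8.53 in mandible, against 7.11, 7.08 and 7.28 in maxilla.

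Enzymes that make retinoic acid differed most within its pathway. Aldh1a3, an enzyme that makes retinoic acid in facial epithelium, had 4.97, 6.43 and 5.34 in mandible, against 9.69, 9.69 and 9.76 in maxilla, a difference of -4.14 (SE 0.25, adjusted p = 6.81e-19). Aldh1a1, another such enzyme, was at 5.51, 5.17 and 5.54 in mandible, against 7.72, 7.66 and 7.62 in maxilla, and Aldh1a2 was lower by 0.76. Their calls were lost without replicate 1 of every group (Aldh1a1, adjusted p = 0.085) or without mandible replicate 1 or maxilla replicate 1 or 2 (Aldh1a2). Rdh10, which makes the retinaldehyde they use, was higher, with 10.16, 10.07 and 10.499 in mandible, against 9.65, 9.63 and 9.65 in maxilla. Of 15 members 8 were called lower and 4 higher. Cyp26a1, which breaks retinoic acid down, was lower too, at 6.39, 6.41 and 6.96 in mandible, against 7.92, 7.999 and 7.93 in maxilla. The cellular binding proteins Crabp1 and Crabp2 were lower by 0.29 and 0.23, and among receptors Rxrg was higher by 1.04 and Rarb lower by 0.33, the last a call lost without any of 5 arrays (all but mandible replicate 3) or with only the 6 arrays.

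Hedgehog pathway genes were mostly higher in mandible, 10 of 16, against 14.46% of all genes. The 2 lower were near the 11.3% of all genes, and the median was 0.21. The ligand Shh, made by oral epithelium, had 9.66, 9.66 and 9.53 in mandible, against 8.92, 8.89 and 8.84 in maxilla, a difference of 0.73 (adjusted p = 0.012). Its receptor Ptch1, itself a target of the pathway, had 12.01, 11.75 and 11.92 in mandible, against 11.15, 11.14 and 11.22 in maxilla. Ptch1 and the decoy receptor Hhip were higher by 0.73 and 1.02, and the co-receptor Cdon by 0.73, whereas the co-receptor Boc was lower by 0.42. The forkhead targets of the pathway in facial mesenchyme were higher, Foxf1 by 1.43, Foxf2 by 1.14 and Foxc2 by 1.16. Gli1, the usual readout of the pathway, differed by 0.10 and did not pass. Osr2, a palate gene, was lower, at 6.25, 6.40 and 5.58 in mandible, against 8.29, 8.10 and 8.19 in maxilla.

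FGF genes differed at 2 ligands in opposite directions. Fgf8, the signal of the proximal oral epithelium, had 5.55, 5.67 and 6.40 in mandible, against 7.67, 7.48 and 7.60 in maxilla, a difference of -1.71 (adjusted p = 6.27e-10). Fgf18, a ligand of skeletal precursors, had 7.84, 8.31 and 7.87 in mandible, against 6.30, 6.09 and 6.20 in maxilla, a difference of 1.81 (adjusted p = 1.04e-12). Of the 22 members 6 were called higher, against 14.46% of all genes, and 3 lower, near the 11.3% of all genes, and 7 of the 9 ligands were not called. Receptors Fgfr1 and Fgfr4 were higher by 0.53 and 0.61 and Fgfr2 was lower by 0.23, the last not called with only the 6 arrays or without mandible replicate 1 or 3 or maxilla replicate 1 or 2. Feedback and response genes disagreed, with Dusp6 lower by 0.70 and Etv5, Etv4 and Spred2 higher by 0.58, 0.45 and 0.33.

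WNT pathway genes were more often lower: 11 of 38 were, against 11.3% of all genes, with 5 higher, near the 14.46% of all genes, and a median of -0.08. Dkk4, a secreted inhibitor made by epithelium where WNT signalling is active, had 5.61, 6.23 and 5.33 in mandible, against 9.22, 9.01 and 9.18 in maxilla, a difference of -3.41 (adjusted p = 7.28e-20). The response genes Lef1 and Axin2 were lower by 0.97 and 0.40, Axin2 at 9.47, 9.41 and 9.50 in mandible, against 9.89, 9.85 and 9.84 in maxilla. Nkd1, an inhibitor induced by the pathway, was lower by 0.52 and Rnf43 by 0.42, and Znrf3, a relative of Rnf43, was higher by 0.28. Of 16 ligands 4 were lower, Wnt3 by 0.93, Wnt9b by 0.57, Wnt11 by 0.57 and Wnt6 by 0.47, and Wnt9a was higher by 0.53. The agonist Rspo2 was higher by 0.78 and Rspo3 lower by 0.59. The calls of Rspo3, Rnf43 and Wnt11 were lost with only the 6 arrays, that of Rspo3 also without mandible replicate 3, that of Rnf43 without maxilla replicate 1 and that of Znrf3 without maxilla replicate 2. Sfrp4, higher by 0.75, was at -0.084 without mandible replicate 2, and its call was lost without any 1 maxilla array.

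BMP genes moved in both directions: 9 of 29 were called higher and 7 lower, which became 7 higher and 9 lower with centred or again quantile-normalized arrays. Bmp7 was lower by 0.55 and Bmp5 higher by 0.61, and Bmp4, the main ligand of the distal jaw, was at 11.68 ± 0.22 in mandible and 11.31 ± 0.04 in maxilla (SD, n = 3 each; adjusted p = 0.12). Bmper, an extracellular modulator, had 6.16, 7.59 and 6.69 in mandible, against 8.10, 7.99 and 7.96 in maxilla. The response genes Id1, Id3 and Id4 were lower by 0.28, 0.55 and 0.73, and Bambi and Smad6 were higher by 0.40 and 0.31, the last not called with only the 6 arrays or without mandible replicate 3. Receptor genes Bmpr2 and Acvr1 were higher by 0.39 and 0.36 and Bmpr1b was lower by 0.49. Of 14 Notch pathway genes 4 were higher, among them Dll1, a ligand, by 0.76 and Notch3 by 0.40, and Hey2, a target, was lower by 0.86, a call lost without mandible replicate 1 or 3 or maxilla replicate 1.

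Hox genes, which the first arch lacks and the second arch has, had low signals. The mean of the list was 5.73, 5.46 and 5.80 in mandible arrays, against 5.23, 5.36 and 5.32 in maxilla arrays. By group mean, 7 genes were above the floor in both jaws and 3 were at or under it in both. Of 12 measured 3 were called higher: Hoxa2, the gene that defines the second arch, had 6.22, 5.22 and 6.65 in mandible, against 4.29, 4.26 and 4.10 in maxilla, and Hoxb2 and Hoxa3 were higher by 0.81 and 0.35. Hoxa2 was at least 2.38-fold higher, with mandible replicate 2 the lowest. Hoxa3 was not called without mandible replicate 3, without maxilla replicate 1 or 2 or with only the 6 arrays. 

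Skeletal precursor genes were higher in mandible without signs of mineralization. Sp7, the osteoblast factor, was higher by 0.94 and Alpl, an early osteoblast enzyme, by 1.05, and Col1a1 by 0.70, a call lost without replicate 2 of either jaw or with only the 6 arrays. Of 10 cartilage genes 4 were called higher, against 14.46% of all genes, Col9a1 by 1.49, Sox6 by 1.09, Col11a1 by 0.42 and Sox9 by 0.37. The main cartilage genes Col2a1 and Acan differed by 0.25 and 0.24 and did not pass. Without mandible replicate 2, or without maxilla replicate 2 or 3, the cartilage calls were 2, Col9a1 and Sox6 among those that held in each case. Of 10 mesenchyme markers 2 were higher, near the 14.46% of all genes, and 4 lower, against 11.3%, led by Pdgfra, higher by 0.55, and Tfap2a. Cell cycle genes differed by at most 0.30. Of 19 measured 2 were higher, near the 14.46% of all genes, and 6 lower, against 11.3%, and with only the 6 arrays 1 of each.

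Vessel genes were higher in mandible, 7 of 11, against 14.46% of all genes, with a median of 0.39. Cdh5, the cadherin of endothelium, had 9.06, 9.10 and 9.10 in mandible, against 8.42, 8.49 and 8.28 in maxilla (adjusted p = 6.23e-13). Erg, an endothelial transcription factor, was higher by 0.995, Kdr, the receptor of VEGF, by 0.52 and Pecam1 by 0.54. Of 13 macrophage genes 5 were called higher, against 14.46% of all genes, led by Mrc1 at 0.62 and Csf1r at 0.38, and 2 with only the 6 arrays. Leaving out 1 array gave between 3 and 5. Of 9 red blood cell genes 0 were called by limma and 0 had an unadjusted p under 0.05, and 2 were called higher with only the 6 arrays. Of 6 pigment cell genes 1 was called, Kit, higher by 0.56, which is near the 14.46% of all genes. The pigment enzymes Dct, Tyr and Tyrp1 did not pass.

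Further genes among the 30 largest belong to none of these lists. Gpr50, an orphan relative of the melatonin receptors, had 9.56, 9.09 and 10.01 in mandible, against 4.26, 4.46 and 4.06 in maxilla, at least 27.4-fold higher. Rtl3, a gene derived from a retrotransposon, had 9.78, 9.89 and 9.94 in mandible, against 5.76, 5.81 and 4.98 in maxilla. Dlk1, an imprinted Notch-like protein of growing mesenchyme and muscle, had 11.73, 11.67 and 11.89 in mandible, against 8.59, 8.60 and 8.62 in maxilla, a difference of 3.16. These 3 were clear of the maxilla in every array. Aspn, a matrix protein of connective tissue, varied more between mandible arrays, with 8.06, 9.72 and 7.36 in mandible, against 5.47, 5.44 and 5.35 in maxilla, and its difference of 2.96 was 2.29 without mandible replicate 2. On the lower side, Pantr1, a non-coding RNA beside Pou3f3, was at 7.68, 8.18 and 7.32 in mandible, against 10.92, 10.94 and 10.90 in maxilla. Tmem30b, a subunit of lipid-transporting ATPases, was lower by 2.94, Tbx15, a T-box gene of mesenchyme, by 2.25 and Slitrk4, a synaptic adhesion protein, by 2.29. Mettl11b and Ppp1r17 were under the floor in mandible, at least 3.89-fold and 3.60-fold lower.

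Neighbouring genes were then set side by side. Among 18122 pairs of measured genes that lie next to each other in the RefSeq gene order (GRCm38.p6), 1311 (7.23%) had both genes called, against 6.62% for the square of the share of genes called. Of these pairs 24 had both genes called and at least 2-fold apart, and 23 of these (95.8%) had the same direction. Over all 1311, whatever their size, 772 (58.9%) did. Pairs lower in mandible included Foxl2 with Foxl2os, Pou3f3 with Pantr1, Dlx1 with Dlx1as, Emx2 with Emx2os and Shox2 with Ptx3. Crnde with both Irx3 and Irx5, Nefl with Nefm and Tbx18 with Nt5e were also lower. Pairs higher in mandible included Dlx6 with Dlx6os1, Irx1 with Irx2, Tlx1 with Kazald1 and Igf2 with Igf2os. Islr with Islr2, Rtl3 with Lpar4 and the muscle genes Myog with Mybph and Ttn with Ccdc141 were also higher. The pair in opposite directions was Aldh1a1, lower by 2.26, and Aldh1a7, higher by 1.24, related genes whose probes could share signal. Several pairs are a gene and its antisense transcript, whose signals could likewise be shared, and that share was not tested.

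The jaw difference was then set against that of the proximal pieces of the same age and batch, where 5845 genes (32.1%) were called, 3901 higher (21.4%) and 1944 lower (10.7%). With a 2-fold limit the balance turned, at 175 higher and 436 lower. The test of the difference between the distal and the proximal jaw difference called 4413 genes (24.3%), 1880 with a more positive value distally (10.3%) and 2533 with a more negative one (13.9%). That balance turned too, with 1926 more positive and 1113 more negative without replicate 1 of every group, 2261 and 2085 without proximal mandible replicate 1, and 502 and 188 with a 2-fold limit. Hand2 was higher in mandible in both, by 7.79 distally and 5.12 proximally, and the 2 values differed by 2.68 (adjusted p = 4.15e-18). Pitx1 went the opposite way, with 2.19 distally and 4.05 proximally. Of the 15 upper-jaw genes 11 had a more negative difference distally and 2 a more positive one. In the proximal pieces 5 of them were higher in mandible and 2 lower, Foxl2 and Zic1, with a median difference of 0.175. Irx5, for example, differed by -1.39 distally and by 0.02 proximally, where its means were 9.82 in mandible and 9.81 in maxilla. Dkk4 differed by -3.41 distally and 0.25 proximally, Aldh1a3 by -4.14 and -0.86, and Tbx15 by -2.25 and 0.94. The WNT list followed, with 18 of 38 members more negative distally and 1 more positive, and so did Fgf8, at -1.71 distally and 1.04 proximally.

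Neuron genes were far lower in proximal mandible than in proximal maxilla, all 16 of them, with a median of -4.43, against -1.06 distally. The difference was less negative distally for 15 of the 16. Nhlh2, a factor of young neurons, was at 6.59 in distal mandible and 6.73 in distal maxilla, and at 5.34 in proximal mandible and 11.21 in proximal maxilla. The mean of the 16 genes was 6.43, 6.39 and 6.40 in distal mandible, against 7.62, 7.58 and 7.58 in distal maxilla, and 7.47, 6.77 and 7.06 in proximal mandible, against 11.29, 11.25 and 11.26 in proximal maxilla. The proximal maxilla arrays thus stood apart by more than 3 units, and whether they held trigeminal ganglion was not tested. Muscle genes were higher in proximal mandible for 15 of 20, with a median of 0.88, against 2.68 distally, and 15 of the 20 had a more positive difference distally. The mean of the 20 genes was 9.34, 7.74 and 8.32 in proximal mandible arrays, against 7.63, 7.67 and 7.68 in proximal maxilla arrays, so proximal mandible replicate 1 was the highest. Without it 6 of the 20 were higher in proximal mandible and 1 lower, with a median of 0.55. The count of 15 with a more positive difference distally was 10 without distal mandible replicate 2 or without proximal mandible replicate 2. Myf5 in particular was at 8.08 in proximal mandible and 7.97 in proximal maxilla, a difference of 0.10.

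**Figure D5:**
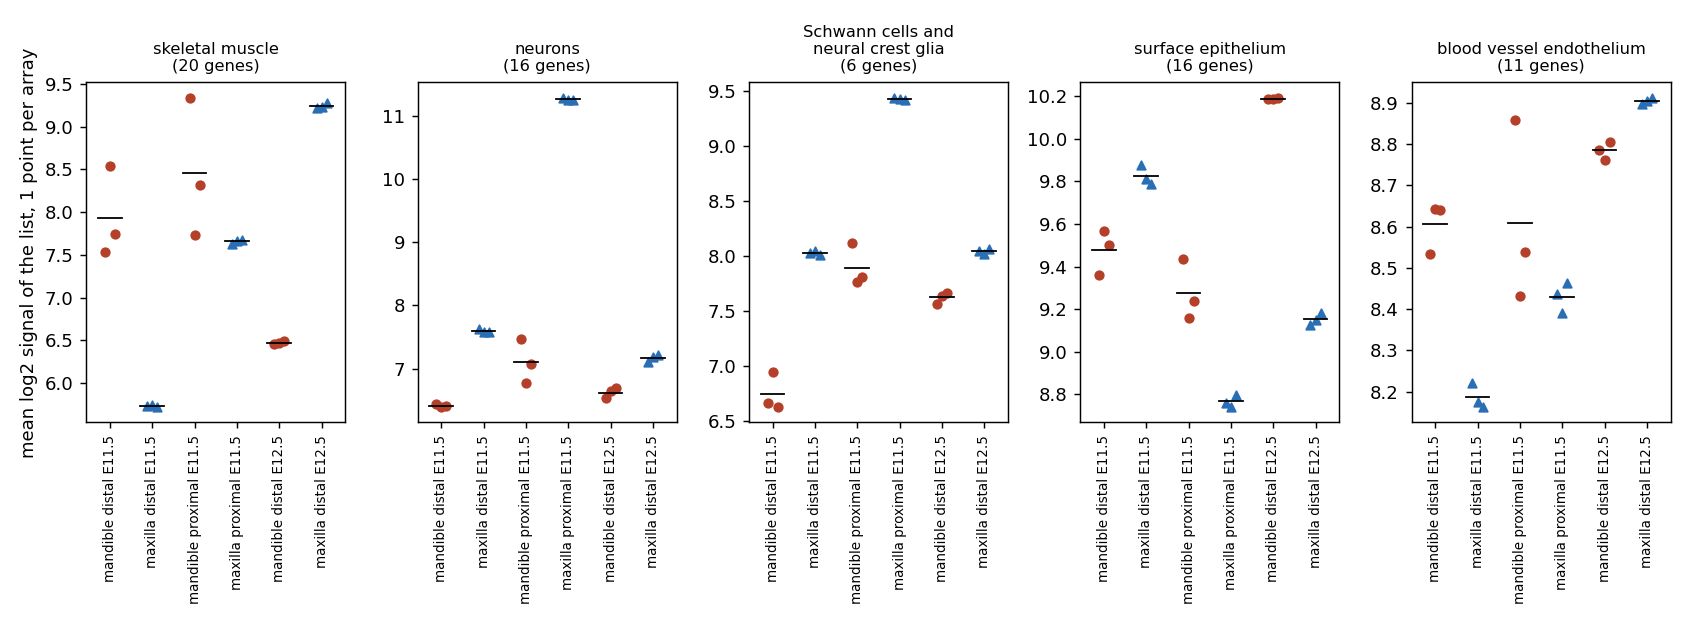
Mean log2 signal of 5 marker lists (vertical axis, a scale of its own in each panel), 1 point per array, red circles for mandible and blue triangles for maxilla, with a bar at the mean of 3 arrays. Among the groups shown, the mean of muscle genes is highest in distal maxilla at E12.5, with arrays at 9.22 to 9.27, where 1 proximal mandible array at E11.5 stands at 9.34, and lowest in distal maxilla at E11.5, at 5.72 to 5.74; neuron genes are highest in proximal maxilla, at 11.25 to 11.29.

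At E12.5, in another batch, 4216 genes (23.2%) were called between the distal jaws, 2236 higher in mandible (12.3%) and 1980 lower (10.9%). The test of E11.5 against E12.5 called 4531 genes (24.9%), 2339 with a more positive jaw difference at E11.5 (12.9%) and 2192 with a more negative one (12%). E11.5 was labelled batch 3 and E12.5 batch 2, so age and batch cannot be told apart for this test, although each jaw difference is within its batch. Muscle genes had the opposite direction: all 20 were lower in mandible at E12.5, with a median of -3.13, against 2.68 at E11.5, and the change was called for all 20. The mean of the 20 genes was 7.53, 8.54 and 7.74 in mandible and 5.73, 5.74 and 5.72 in maxilla at E11.5, and 6.46, 6.47 and 6.49 in mandible and 9.22, 9.24 and 9.27 in maxilla at E12.5. Actc1 averaged 11.70 in mandible and 8.02 in maxilla at E11.5, and 10.02 in mandible and 13.12 in maxilla at E12.5. Hand2 and Foxl2 kept their direction at E12.5, with Hand2 at 12.87 in mandible and 7.12 in maxilla, and Foxl2 at 7.28 in mandible and 11.46 in maxilla. Where along the jaw each piece was cut at each age is not stated, and its part in the muscle result was not tested.

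Other groups also differed in direction between E11.5 and E12.5. Surface epithelium genes were lower in mandible for 10 of 16 at E11.5 and higher for 15 of 16 at E12.5, with medians of -0.38 and 1.15, and 15 changed by the test. Vessel genes were higher for 7 of 11 at E11.5 and, at E12.5, higher for 2 and lower for 5, with medians of 0.39 and -0.19. With 1 distal E12.5 array left out, 1 or 2 were higher and 3 to 5 lower at E12.5. Dkk4 was lower in mandible by 3.41 at E11.5 and higher by 1.15 at E12.5. Dlx5 and Dlx6 differed by 1.43 and 2.49 at E11.5 and by 0.00 and 0.18 at E12.5, and the change was called for both (adjusted p = 5.90e-06 and 3.74e-09). Of the 15 genes of upper-jaw identity 11 were lower in mandible and 3 higher at E11.5, and 13 lower and 0 higher at E12.5, and the difference between the ages was called for 8. Nr2f2, higher in mandible at E11.5, was lower at E12.5. Irx3 and Irx5 had nearly the same difference at both ages, at -1.18 and -1.39 at E11.5 and -1.17 and -1.38 at E12.5. Ibsp, the bone matrix protein, was under the floor in both jaws at E11.5 and at 8.82 in mandible and under the floor in maxilla at E12.5.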

How the data were processed

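Biotin-labelled cRNA from total RNA was hybridized to Affymetrix mouse arrays. The deposited log2 values were made by the authors with RMA, per the submitters' processing notes, which name no version. No further normalization was applied. Of 45101 probe sets, 64 controls, 932 with several gene symbols and 9160 with none were left out, which gave 18193 genes, 9010 of them with several probe sets. All 60 arrays entered 1 limma fit (version 3.58.1, R 4.3.3) with a mean for each of 20 groups and 40 residual degrees of freedom, eBayes with trend, two-sided tests and Benjamini-Hochberg adjustment over all genes. The number of arrays limits the precision. On simulated data with 200 changed genes among the 18193, 75% of changes of 0.5 and 100% of changes of 1 were recovered for the distal jaw difference. Of 185 calls there, 10 were false. The simulated noise was independent, with 1 spread per gene in every group, whereas the distal mandible arrays spread more than the distal maxilla arrays. These shares therefore need not hold for the measured arrays. Motifs were counted in RefSeq promoters.

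The genes named are the called genes that differ most, 15 higher and 15 lower, with a mean of at least 6 in the higher group and groups that do not overlap, the 5 largest per direction for each test of a difference of differences, and up to 4 called members of smallest p per role of each list, or the highest where none was called. All other genes in the text, such as Pax7, Shox2, Barx1, Tshz1, Gli1, Krt5, Bmp4, Edn1, Igf2 and the neighbour pairs, were chosen after their values were seen. The 30 lists and the comparison were chosen with earlier results of these data known. Alternatives were another scaling, other probe set rules, fewer arrays, other variance models, array weights and a replicate block.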

Additional observations from a re-analysis of the deposited data

Results flagged for a closer look

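The jaw difference of the distal pieces at E11.5 differed from that of the proximal pieces for 4413 genes and from that of the distal pieces at E12.5 for 4531 genes (limma, adjusted p under 0.05). The named genes of each test are given here as the first jaw difference minus the second, on the log2 scale. Against the proximal pieces, the most positive were Nhlh2 at 5.72, Hivep3 at 4.96, Neurod4 at 4.96, Prph at 4.72 and Dcx at 4.68, all of them with high values in proximal maxilla. In proximal mandible Nhlh2, Hivep3, Neurod4, Prph and Dcx had means of 5.34, 5.08, 3.66, 5.51 and 7.24, against 11.21, 9.30, 8.88, 10.76 and 10.82 in proximal maxilla. The most negative were Chodl at -3.83, Dkk4 at -3.67, Aldh1a3 at -3.28, Tbx15 at -3.19 and Dlx1as at -3.11. Chodl had 6.59, 8.79 and 6.03 in distal mandible, against 8.92, 8.81 and 8.89 in distal maxilla, so mandible replicate 2 lay at the level of the maxilla.

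Against E12.5, the most positive were Myf5 at 7.82, Myl4 at 7.02, Actc1 at 6.78, Myl1 at 6.72 and Myh3 at 6.69, all muscle genes. Myf5, Myl4 and Myh3 were under the floor in distal maxilla at E11.5, so their values are not exact. The most negative were Ibsp at -5.31, Dkk4 at -4.56, Panx3 at -3.35, Stmn2 at -3.28 and Hey2 at -3.05. Ibsp and Panx3 were at or under the floor in both jaws at E11.5, so their values rest on E12.5, where Panx3 was at 8.17 in mandible and under the floor in maxilla.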

How the results depend on the processing

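The numbers of called genes moved by more than 1.5 times under these settings, given for the distal jaw difference at E11.5 (4681 with all arrays), its difference from the proximal pieces (4413), its difference from E12.5 (4531), the proximal jaw difference (5845) and the distal one at E12.5 (4216), in that order. With a 2-fold limit they were 296, 690, 646, 611 and 478, which asks more of a gene, and with every probe set as a unit 7341, 6721, 7195, 9393 and 6505, which tests more units. With only the arrays compared they were 2445, 2933 for the difference from the proximal pieces and 6370 at E12.5, and with array quality weights 7774 for the difference from the proximal pieces, 11157 for the proximal jaw difference and 7019 at E12.5; the cause was not tested. Leaving out a replicate number or an array gave 2907 to 4739, 2780 to 5143, 2829 to 4813, 3989 to 5760 and 2536 to 3624. The share of calls that were higher at E11.5 was 56.2%, and 43.2% after quantile normalization again, 42.7% with centred arrays, 44.6% with array weights and 41.1% without mandible replicate 3. It also moved up, to 68.7% without replicate 1 of every group. For the difference from the proximal pieces it was 42.6%, and 31.1% with centred arrays, 63.4% without replicate 1 and 72.8% with a 2-fold limit; for that from E12.5 it was 51.6%, and 41.7% after quantile normalization and 62.9% without replicate 1. It was 53%, and 42.7% with centred arrays, at E12.5, and 66.7%, and 28.6% with a 2-fold limit, for the proximal jaw difference.

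Same-numbered distal mandible and maxilla arrays at E11.5 did not deviate together (r of -0.06, -0.02 and 0.00). With 3 arrays a group this cannot show whether samples were paired, and shared embryos or litters were not tested. Same-numbered distal and proximal mandible arrays had r of -0.22, -0.36 and 0.10, and distal replicate 2 with proximal replicate 1 had 0.37. The fit with a replicate block called 4562, 4313, 4459, 5755 and 4132 genes. Sfrp4 was the gene that reversed, at 0.75 with all arrays, -0.06 without replicate 2 and between -0.084 (without mandible replicate 2) and 1.20 (without mandible replicate 3) with 1 array left out. Over all alternatives of the 30 named genes, 627 values kept direction and call and 1 did not, that of Aldh1a1 without replicate 1 (adjusted p = 0.085). Those genes were chosen for large differences and groups that do not overlap, so this says little of smaller differences. Of the 215 called genes among them and the lists, 179 kept their call with only the 6 arrays. With each of the 6 arrays left out in turn, 178 kept direction and call throughout.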
